A study of Mus musculus with 2 samples.

Results

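The T cells of the mouse uterus on gestational day 4 were chosen by their transcripts from single-cell libraries of whole uterus, 1 from a Mettl14 d/d sample and 1 from a Mettl14 f/f sample. A barcode was kept with at least 1000 unique molecular identifiers (UMIs, each counting 1 captured transcript), at least 500 genes and at most 20% of its UMIs from mitochondrial genes. A kept barcode was taken as a T cell when at least 2 of the 3 genes Cd3e, Cd3d and Cd3g had a UMI and none of the 4 genes Epcam, Pecam1, C1qa and Cd79a had one. T cells with a UMI of Trdc, Tcrg-C1 or Cd163l1 formed the γδ class, and the remainder the class of other T cells. The rule found 240 T cells among 13935 kept barcodes, of which 163 were γδ and 77 were other T cells. The members were thus selected on measured values of these genes, whose levels are given below as a description. Mettl14 encodes a subunit of the enzyme that places N6-methyladenosine (m6A) on RNA. In this notation d/d stands for deleted and f/f for floxed alleles, and no wild-type uterus was compared. The labels name neither the Cre driver nor the cells in which it acts, and they do not say how many mice entered a suspension. Each genotype was 1 library, so no difference between genotypes has a replicate check and no p-value is given. Intervals are exact 95% intervals that cover counting error only.

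The d/d library held 44745031 UMIs on 6661 barcodes and the f/f library 55080123 UMIs on 8164 barcodes, of which 6325 and 7610 were kept. Stromal barcodes made up 45.6% of kept d/d and 74.4% of kept f/f barcodes, as fits whole uterus. The libraries shared 8 barcodes, none of them a T cell. Mettl14 had 9 UMIs in 8 of 213 d/d T cells (11.8 CPM, its UMIs scaled to the UMIs of all genes in the class) and 0 of 86246 UMIs in f/f T cells, which allows up to 42.8 CPM by the exact interval. In all other kept barcodes Mettl14 stood at 5.47 CPM in d/d and 15.4 CPM in f/f. The reads come from the 3′ end and the deleted exons are not named, so Mettl14 does not check the deletion within T cells. RNA of other cell types was also read in T cell barcodes. The 6 stromal markers (Dcn, Col1a1, Col3a1, Lum, Col6a1 and Pdgfra) summed to 2448 CPM in d/d and 5171 CPM in f/f T cells, with 10 or more such UMIs in 18 of 213 d/d and 4 of 27 f/f cells. The 6 smooth muscle markers summed to 2224 CPM in d/d and 220.3 CPM in f/f T cells, with 10 or more in 12 d/d cells and 0 f/f cells, and Myh11 and Actg2 were at 0 in f/f. Values named below as without attached stroma or muscle leave out all these cells. The macrophage genes Csf1r and Adgre1, the B cell gene Ms4a1, the mast cell genes Cpa3, Mcpt4 and Cma1 and all 4 neutrophil genes were at 0 in T cells of both libraries.

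T cells recognise antigen through a receptor made of α and β chains or of γ and δ chains, and both forms signal through the CD3 proteins. Some γδ T cells leave the fetal thymus early, settle in tissues such as skin, tongue and uterus, and release interleukin 17A (IL-17A) quickly under interleukin 1 and interleukin 23. IL-17A acts on epithelium and stroma to induce chemokines that draw neutrophils. Resident γδ T cells of mouse mucosa can also make amphiregulin, the product of Areg, which is a ligand of the epidermal growth factor receptor.

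The promoter windows of Il17a, Il17f and Areg are shown because Il17a and Areg were the cytokine genes that set d/d T cells farthest apart, while Il17f, the neighbour of Il17a on chromosome 1, was hardly read. Each window is from RefSeq (build GRCm38.p6) and runs on the gene's strand from 250 bases before to 50 bases after the start. It lies at chr1:20730655-20730954 on the plus strand for Il17a, at chr1:20784221-20784520 on the minus strand for Il17f and at chr5:91139349-91139648 on the plus strand for Areg. Capitals mark AGGTCA, a half-site that many nuclear receptors are known to bind, written TGACCT where it lies on the other strand, and in Areg the cAMP response element TGACGTCA.
Il17a: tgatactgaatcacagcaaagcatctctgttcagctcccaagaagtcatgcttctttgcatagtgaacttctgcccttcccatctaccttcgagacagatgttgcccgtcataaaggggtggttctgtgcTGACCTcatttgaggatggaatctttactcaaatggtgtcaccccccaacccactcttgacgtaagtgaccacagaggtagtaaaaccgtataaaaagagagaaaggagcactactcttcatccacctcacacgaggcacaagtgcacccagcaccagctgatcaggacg
Il17f: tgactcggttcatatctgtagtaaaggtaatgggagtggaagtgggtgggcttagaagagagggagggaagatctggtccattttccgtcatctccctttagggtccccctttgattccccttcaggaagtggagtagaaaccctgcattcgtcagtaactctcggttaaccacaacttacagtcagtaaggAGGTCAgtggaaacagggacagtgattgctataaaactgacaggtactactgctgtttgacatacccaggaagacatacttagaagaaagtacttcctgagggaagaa
Areg: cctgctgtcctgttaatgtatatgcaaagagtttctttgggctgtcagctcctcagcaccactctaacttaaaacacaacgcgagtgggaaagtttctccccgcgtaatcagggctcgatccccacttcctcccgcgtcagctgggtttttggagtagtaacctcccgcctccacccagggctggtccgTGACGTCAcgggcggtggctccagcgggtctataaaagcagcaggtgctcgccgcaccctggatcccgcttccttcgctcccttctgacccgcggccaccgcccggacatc
On both strands together AGGTCA was present in 5340 of 32851 promoter windows of this length (16.3%) and TGACGTCA in 588 (1.79%), and the searched motifs share no position in these windows. A match of letters does not show a binding site.

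T cells, of both classes, were a larger share of the d/d library. T cells made up 213 of 6325 kept barcodes in d/d (3.37%, interval 2.94% to 3.84%) and 27 of 7610 in f/f (0.355%, 0.234% to 0.516%), a ratio of 9.49 (6.34 to 14.7). The ratio was 20.1 with a minimum of 2000 UMIs per barcode and 28.4 with all 3 CD3 genes required. The γδ cells numbered 152 in d/d (2.40%) and 11 in f/f (0.145%), a ratio of 16.6 (9.03 to 34.0). Other T cells numbered 61 in d/d (0.964%) and 16 in f/f (0.210%), a ratio of 4.59 (2.61 to 8.52). The γδ class held 71.4% of d/d T cells (64.8% to 77.3%) and 40.7% of f/f T cells (22.4% to 61.2%). With at least 2 of the 3 γδ genes required the shares were 64.8% in d/d and 22.2% in f/f. With all 3 CD3 genes required they were 72.0% in d/d and 60% in f/f, on 5 f/f T cells. After thinning each kept barcode to 1000 UMIs before the rule they were 64.6% in d/d and 41.7% in f/f, on 12 f/f T cells. Natural killer (NK) or innate lymphoid cells, taken as barcodes with at least 2 of 6 NK genes and fewer than 2 CD3 genes, stood the other way round at 31 cells in d/d (0.490%) and 157 in f/f (2.06%), a ratio of 0.238 (0.156 to 0.351). A share also depends on how many other cells were recovered, so more T cells and fewer other cells cannot be told apart.

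**Figure D1:**
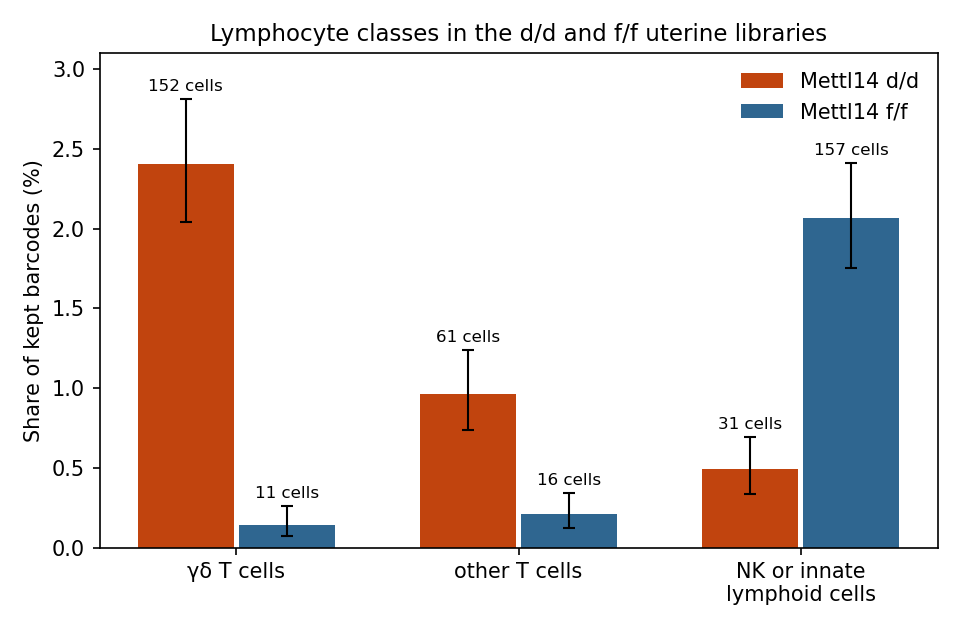
Share of kept barcodes (%) in each lymphocyte class of the Mettl14 d/d and f/f libraries, with exact 95% binomial intervals and the number of cells at each bar. The γδ class stood at 2.40% in d/d and 0.145% in f/f, and NK or innate lymphoid cells at 0.490% in d/d and 2.06% in f/f.

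Depth differed between the T cells of the libraries. The median was 2838 UMIs per T cell in d/d (lowest 1186, highest 16246) and 1589 in f/f (1029 to 12187), although all kept barcodes had medians of 5390 and 6243.5 UMIs. A shallow cell shows a second CD3 gene less readily, and the part of depth in the share was checked by thinning every kept barcode to 1000 UMIs before the rule was applied, which left 127 T cells in d/d and 12 in f/f. All 3 CD3 genes were detected in 118 of 213 d/d and 5 of 27 f/f T cells. All 3 γδ genes were detected in 113 of 152 d/d and 3 of 11 f/f γδ cells, and a single one in 14 d/d and 5 f/f cells. Just outside the rule were 48 d/d and 35 f/f barcodes with 1 CD3 gene, and 39 d/d and 11 f/f barcodes with at least 2 CD3 genes and a UMI of an excluded gene, which was the endothelial gene Pecam1 in 24 and 4 of them. The f/f γδ class is small, and its 2 deepest cells held 12187 and 10332 of its 37830 UMIs.

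The genes that chose the cells had the following levels. Cd3g had 1059 UMIs in d/d T cells (1393 CPM) and 47 in f/f T cells (545 CPM), Cd3d had 485 UMIs in d/d T cells (638 CPM) and 41 in f/f T cells (475 CPM) and Cd3e had 306 UMIs in d/d T cells (402 CPM) and 20 in f/f T cells (232 CPM). Trdc, the δ constant chain on chromosome 14 (bases 54142851 to 54148868, GRCm38), had 576 UMIs in d/d T cells (758 CPM) and 15 in f/f T cells (174 CPM). These δ transcripts and the γ transcripts below split the classes. Tcrg-C1, a γ constant chain on chromosome 13 (19214103 to 19217024), had 348 UMIs in d/d T cells (458 CPM) and 8 in f/f T cells (92.8 CPM). Cd163l1, which encodes the scavenger receptor SCART1 of mouse γδ T cells, had 529 UMIs in d/d T cells (696 CPM) and 24 in f/f T cells (278 CPM). Some T lineage genes outside the rule were also read in T cells. Cd247, the ζ chain of the CD3 complex, had a UMI in 94 of 213 d/d and 5 of 27 f/f T cells, against 12 of 2886 d/d and 10 of 5660 f/f stromal barcodes, which were deeper (medians of 6600 and 6648 UMIs). These stromal barcodes were chosen to lack CD3 and Ptprc UMIs, and Cd247 is not compared with NK cells here. Bcl11b, a transcription factor of the T lineage, had a UMI in 126 d/d and 9 f/f T cells. Foxp3, which defines regulatory T cells, had no UMI, which allows up to 1.41% of d/d and 11.1% of f/f T cells to carry one.

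The variable segments read in γδ cells were almost all of 1 pair. Trdv4 and Tcrg-V6 encode the δ and γ variable segments of the fetal γδ T cells known from the mouse uterus. Trdv4 (chromosome 14, 54074905 to 54075515) had 252 UMIs in 110 of 152 d/d γδ cells (72.4%, 40.1% after thinning to 1000 UMIs) and 6 UMIs in 6 of 11 f/f γδ cells. Tcrg-V6 (chromosome 13, 19190356 to 19190929) had 40 UMIs in 34 d/d and 2 UMIs in 2 f/f γδ cells. At least 1 of the pair was read in 115 of 152 d/d γδ cells (75.7%) and 7 of 11 f/f γδ cells (63.6%), and both in 29 d/d cells and 1 f/f cell. Another γ or δ variable segment without this pair was read in 1 d/d cell and 0 f/f cells. Neither segment was read in any of the 61 d/d or 16 f/f other T cells. The rule did not use them, but each shares a transcript with a δ or γ constant chain. Other T cells have no Trdc or Tcrg-C1 UMI by rule, so this absence was partly fixed by the rule and is no separate support. Trdv4 was read in 3 of 2886 d/d and 0 of 5660 f/f stromal barcodes and in 3 of 31 d/d and 7 of 157 f/f NK cells. A 3′ library reads variable segments seldom, so a cell without the pair is not shown to use another.

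Coreceptors and the α chain were the mark of the other T cells. Cd4, Cd8a and Cd8b1 had no UMI in any γδ cell of either library. Trac, the α constant chain, had a UMI in 19 of 152 d/d and 2 of 11 f/f γδ cells, and in 34 of 61 d/d and 12 of 16 f/f other T cells. Among other T cells 16 of 61 in d/d and 6 of 16 in f/f had a Cd8 gene, and 10 in d/d and 0 in f/f had Cd4. At least 1 of Trac, Cd4, Cd8a and Cd8b1 was read in 41 of 61 d/d and 14 of 16 f/f other T cells, so some of this class have no receptor type assigned by the reads. Transcripts of the β constant genes were not limited to it. Trbc2 was read in 73.7% of d/d and 54.5% of f/f γδ cells, and in 82.0% of d/d and 68.8% of f/f other T cells. Tcrg-C4 was read in 38.2% of d/d and 27.3% of f/f γδ cells, and in 1 of 61 d/d and 0 of 16 f/f other T cells. Tcrg-C1, Tcrg-C2 and Tcrg-C4 are near-identical copies, as are Trbc1 and Trbc2, so the split of reads among them is uncertain.

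**Figure D2:**
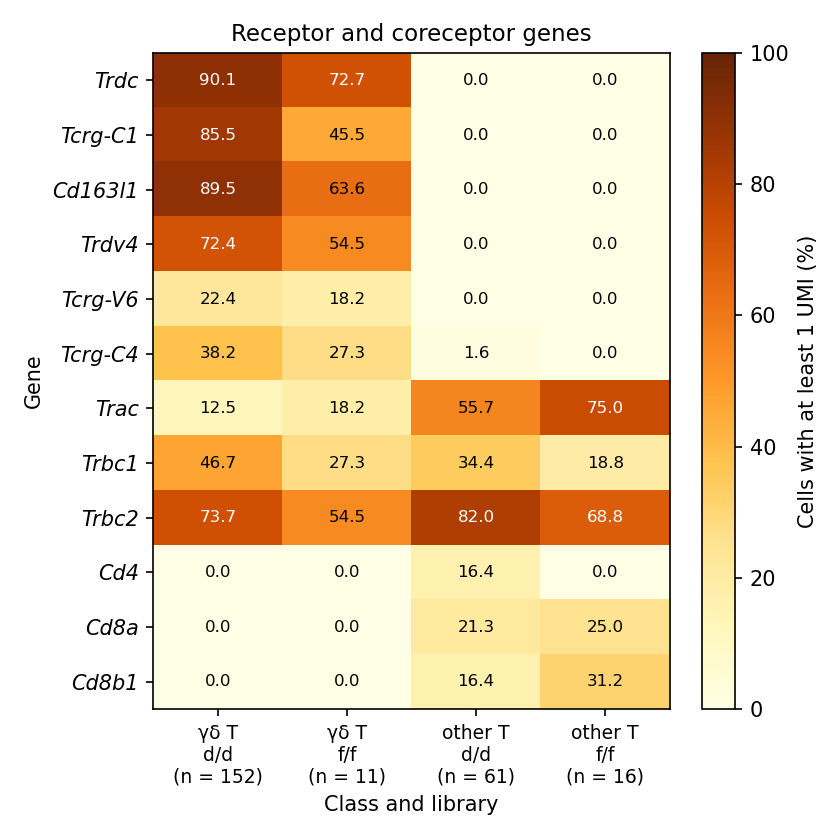
Share of cells with at least 1 UMI (%, printed in each field and shown by colour) of receptor and coreceptor genes (down the page) in γδ and other T cells of the d/d and f/f libraries (across). Trdc, Tcrg-C1 and Cd163l1 split the classes by rule. Trdv4 was read in 72.4% of d/d γδ cells and in 0 other T cells of either library, but it shares a transcript with Trdc.

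Il17a was abundant in d/d γδ cells, less frequent in other T cells and rare in NK and stromal barcodes. It lies on chromosome 1 (20730905 to 20734496, plus strand, GRCm38), and its promoter window is printed above. It had a UMI in 105 of 152 d/d γδ cells (69.1%, interval 61.1% to 76.3%, and 61.2% after thinning the same cells to 1000 UMIs) and in 1 of 11 f/f γδ cells (9.09%, 0.230% to 41.3%). Among other T cells it was read in 8 of 61 in d/d (13.1%) and 1 of 16 in f/f (6.25%). Among NK cells it was read in 1 of 31 in d/d and 0 of 157 in f/f, which allows up to 2.32% by the exact interval. Stromal barcodes, which should lack the gene, had it in 22 of 2886 in d/d (0.762%, a single UMI each) and 2 of 5660 in f/f (0.0353%), at medians of 6600 and 6648 UMIs against 2947.5 and 1435 in γδ cells. The d/d γδ share thus stood far above this background, whereas the f/f share rests on 1 cell with 6 UMIs. Positive d/d γδ cells held a median of 8 Il17a UMIs (1 to 54), with 12 cells at 1 UMI and 47 at 10 or more. In sum there were 1370 UMIs in d/d γδ cells (2489 CPM) and 6 in f/f γδ cells (159 CPM), a log2 ratio of 3.97 (2.85 to 5.42). T cells held 1490 of 1814 Il17a UMIs of kept d/d barcodes (82.1%) and 7 of 12 of kept f/f barcodes (58.3%).

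**Figure D3:**
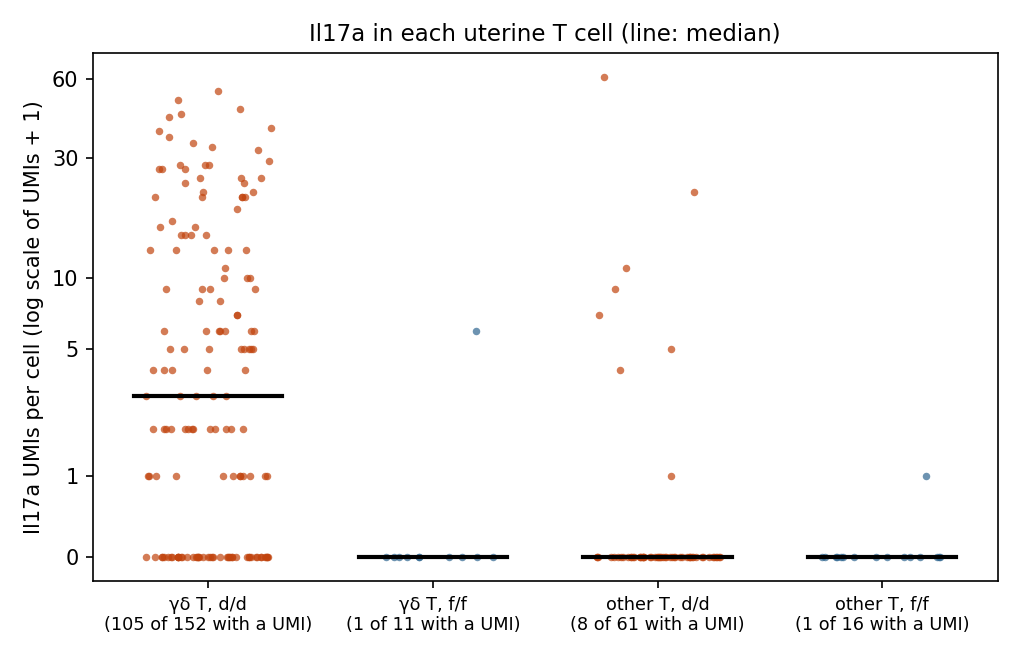
Il17a UMIs in each T cell, by class and library, with 1 point per cell (vertical axis on a log scale of UMIs + 1) and a line at the median over all cells of the class. Positive d/d γδ cells reached 54 UMIs with a median of 8, and of 11 f/f γδ cells 1 had 6 UMIs and the others none.

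Within d/d γδ cells, those with Il17a had amphiregulin transcripts more often. Areg was read in 44 of 105 cells with Il17a (41.9%, interval 32.3% to 51.9%) and 6 of 47 without (12.8%, 4.83% to 25.7%), at near-equal median depths of 2899 and 2995 UMIs. Icos, a costimulatory receptor, was read in 92 of 105 cells with Il17a and 32 of 47 without. Trdv4 was read in 82 of 105 and 28 of 47, and Maf, a transcription factor of IL-17 γδ cells, in 90 of 105 and 34 of 47. Ccr2, a receptor for monocyte chemokines, ran the other way, at 82 of 105 cells with Il17a and 44 of 47 without. Unlike those of Areg, the intervals of Icos, Trdv4, Maf and Ccr2 with and without Il17a overlapped, and these differences were not tested. The interleukin 1 receptor gene Il1r1 was read in 58 of 105 and 24 of 47, and Trdc in 94 of 105 and 43 of 47, shares that lie close together. Of the 8 d/d other T cells with Il17a, 7 had no Trac, Cd4, Cd8a or Cd8b1 UMI. Maf was read in 6 of 8 and Cxcr6 in 7 of 8 of them, against 16 of 53 and 17 of 53 of the remaining other T cells. Nkg7, a gene of cytotoxic granules, was read in 1 of 8 with and 38 of 53 without Il17a. Their median depths were 3704 and 2686 UMIs.

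Beyond Il17a, the listed genes of the IL-17 programme were higher in γδ than in other T cells of the d/d library. A gene counted as higher or lower at a ratio of at least 2 between CPM values, with 10 UMIs in the higher class and 0 counted as 3. Leaving out Il17a, in d/d 22 of 24 measured members were higher and 1 was lower, with a median log2 ratio of 1.51, where 18.2% of 6274 genes tested were higher and 4.08% lower, with a median of 0.19. In f/f 4 of 7 measured members were higher and 2 lower, with a median of 1.23, where 9.82% of 794 genes were higher and 22% lower, with a median of -0.17. The members below show where the libraries matched and where they did not. Maf had 380 UMIs in γδ cells and 58 in other T cells of d/d (log2 ratio 1.32, 0.92 to 1.75), and 24 and 8 in f/f (1.94, 0.74 to 3.31). Tmem176b, a membrane ion channel gene, had 411 UMIs in γδ cells and 35 in other T cells of d/d (2.16), and 18 and 3 in f/f (2.94, 1.16 to 5.35). Ramp1, a coreceptor for the neuropeptide CGRP, had log2 ratios of 1.50 in d/d and 1.23 in f/f. Rora, which encodes the nuclear receptor RORα, had 1.07 in d/d but -1.10 in f/f, on 4 γδ and 11 other UMIs. Ly6c2, a surface antigen of memory CD8 T cells and monocytes, was lower in both, with 10 γδ and 83 other UMIs in d/d (-4.44) and 0 and 44 in f/f (a log2 ratio of -3.52 with 0 counted as 3).

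The members that follow are given for d/d, where more of them were measured. Among regulators, Blk, a Src family kinase needed for IL-17 γδ cells in mice, had 127 UMIs in γδ cells and 6 in other T cells (3.01, 1.85 to 4.49), Sox13 had 37 and 2 (2.82, 0.86 to 5.92) and Zbtb16, which encodes PLZF of innate-like T cells, had a log2 ratio of 1.21. Among receptors, Il1r1 had 121 UMIs in γδ cells and 8 in other T cells (2.53, 1.50 to 3.77) and Il23r had 40 and 5 (1.61, 0.27 to 3.31), the receptors of the cytokines that release IL-17A. Il7r, the interleukin 7 receptor that maintains these cells, stood at 1.53 and Il17re, which encodes a receptor subunit for IL-17C, at 1.38. Aqp3, a water and glycerol channel, had 56 UMIs in γδ cells and 2 in other T cells (3.42, 1.50 to 6.50). Serpinb1a, a protease inhibitor, had a ratio of 3.06 (1.79 to 4.71), the leukotriene receptor gene Ltb4r1 of 2.50 and the actin crosslinker gene Actn2 of 2.15. Some known members were hardly read. Il17f had 5 UMIs in 5 d/d γδ cells and 0 in the other classes of T cells, Il22 had 2 UMIs and Ccr6 1 UMI in all d/d T cells, and all 3 were at 0 in f/f T cells.

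**Figure D4:**
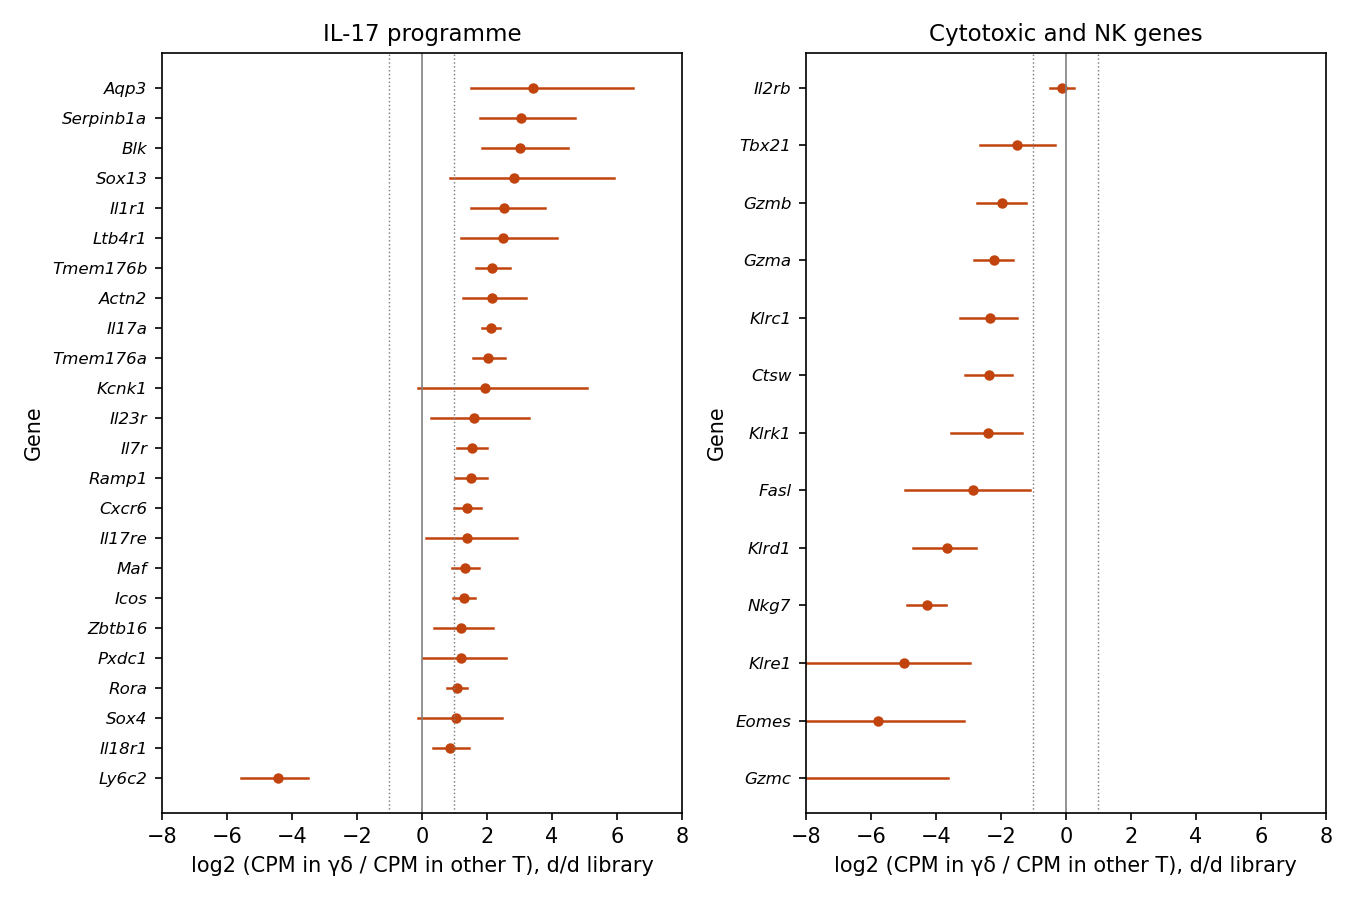
Log2 ratio of CPM, γδ over other T cells of the d/d library (horizontal), for measured genes of the IL-17 programme (left panel) and of the cytotoxic and NK list (right panel), where points are ratios, lines exact 95% intervals for counting error and dotted lines a ratio of 2 either way. Blk stood at 3.01 and Il17a at 2.12, while Nkg7 stood at -4.26, and Gzmc, at 0 in γδ cells, has a line without a point.

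Cytotoxic and circulating T cell genes marked the other class. Of the cytotoxic and NK list 0 members were higher and 12 of 13 measured were lower in d/d γδ cells (median -2.39), and 5 of 6 were lower in f/f (median -1.97). Over all genes tested 18.2% were higher and 4.08% lower in d/d γδ cells, and 9.82% higher and 22% lower in f/f γδ cells. Nkg7 had 27 UMIs in γδ cells and 198 in other T cells of d/d (-4.26, -4.90 to -3.68), and 9 and 41 in f/f (-1.83). Eomes, a transcription factor of effector CD8 T and NK cells, had 1 UMI in γδ cells and 21 in other T cells of d/d (-5.78, -11.15 to -3.15). All 38 UMIs of Gzma in d/d γδ cells lay in 1 cell. The chemokine gene Ccl5 stood at 414 CPM in γδ and 6286 CPM in other T cells of d/d (-3.92, -4.13 to -3.72), and at 106 and 1012 CPM in f/f (-3.26). Ifng, the interferon γ gene, had 7 UMIs in γδ cells and 93 in other T cells of d/d (-5.12, -6.48 to -4.02), so the UMIs of Il17a and Ifng lay mainly in different classes. Of the genes for receptor signalling 8 of 15 were lower in d/d γδ cells, namely Lck, Cd2, Cd5, Cd6, Cd28, Skap1, Themis and Cd27, and 0 were higher. Cd28, the costimulatory receptor of αβ T cells, had 7 UMIs in γδ cells and 63 in other T cells of d/d (-4.56, -5.93 to -3.43), and 0 and 30 in f/f (-2.97 with 0 counted as 3). Of the naive and circulating list 4 of 6 were lower in d/d (Lef1, Tcf7, Klf2 and S1pr1), with the egress receptor S1pr1 at 5 γδ and 24 other UMIs (-3.65).

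Few genes passed in both libraries. The f/f classes held 37830 γδ and 48416 other UMIs. Of 790 genes with enough UMIs in each, 21 (2.66%) were at least 2-fold higher in γδ cells of both and 28 (3.54%) lower. Higher in both were Tmem176b and Maf, and also Zfp36l1, an RNA-binding decay factor (1.27 in d/d and 1.58 in f/f), Cstb, a cathepsin inhibitor (1.91 and 2.47), Gpx1, a peroxidase (1.10 and 1.80), Fosb (1.08 and 2.36) and Snx18 (1.36 and 2.06). Mgp, Lum, Fstl1, Gsn and Cd34, genes of fibroblasts, were named by the same rule, and stromal markers summed to 2835 CPM in γδ and 1433 CPM in other T cells of d/d. Without attached stroma or muscle the d/d log2 ratio was 0.20 against 5.17 for Mgp, 0.02 against 2.27 for Gsn and 0.47 against 3.74 for Cd34, whereas it was 1.75 for Maf and 2.34 for Tmem176b. In that setting only 5 genes were higher and 23 lower in both libraries, in place of 21 and 28. Snx18 had -0.86 in f/f with at least 2 γδ genes required. With all cells, lower in both were Ly6c2, Cd28, Ccl5, Gzma, Gzmb, Nkg7, Cd8b1, Trac, AW112010, Gimap4, Itga4 and Ms4a4b. AW112010, an RNA induced by interferon, had -1.80 in d/d and -2.07 in f/f.

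In d/d alone, several genes outside the IL-17 list were among the highest in γδ cells. Areg had 1156 UMIs in γδ cells and 27 in other T cells (4.03, 3.48 to 4.64). Gem, a small GTPase gene, had 397 UMIs in γδ cells and 21 in other T cells (2.85), Klf4, a zinc finger factor, 272 and 17 (2.61), and Pdcd1, which encodes the inhibitory receptor PD-1, 196 and 12 (2.64, 1.80 to 3.62). Ccr2 had 377 UMIs in γδ cells and 44 in other T cells (1.71), with 1.07 in f/f. Igfbp3, C3, Adamts1 and Rasd1 stood on the same list, and without attached stroma or muscle Igfbp3 had a log2 ratio of -0.12 against 4.59 with all cells. Lower in d/d γδ cells were also Xcl1 (-6.50), Ccl1, Gramd3, Gzmc and Tnfrsf4. Xcl1 encodes a chemokine of CD8 T and NK cells.

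Between the genotypes, d/d T cells had higher levels of Il17a, Areg and genes of recent activation. A gene counted here at a ratio of at least 2 with 20 UMIs in the higher library. Of the IL-17 list, leaving out Cd163l1, which splits the classes, 15 of 25 measured members were higher and 3 lower in d/d T cells, with a median log2 ratio of 1.27, where 18.1% of 4864 genes tested were higher and 9.44% lower, with a median of 0.03. Scaling with TMM factors from edgeR moved that median to 0.43 and the split to 1324 higher and 173 lower in place of 879 and 459. No named gene with a ratio of at least 2 either way changed sign, and smaller ratios were not checked for this. Without TMM factors, 312 of the 879 higher and 270 of the 459 lower genes had a counting interval that left out a ratio of 1. The mix of classes differed too, as γδ cells were 71.4% of d/d and 40.7% of f/f T cells. Il17a had 1490 UMIs in d/d T cells (1960 CPM) and 7 in f/f T cells (81.2 CPM), a log2 ratio of 4.59 (3.55 to 5.91). Icos had 632 UMIs in d/d T cells (831 CPM) and 11 in f/f T cells (128 CPM), a log2 ratio of 2.70 (1.86 to 3.71). Members lower in d/d were Sox13 (-1.02), Sox4 (-1.23) and Ly6c2 (-2.06), and the first 2 had intervals of -2.09 to 0.21 and -2.18 to -0.18. Of 8 measured cytokine genes 6 were higher (Il17a, Areg, Ifng, Tgfb1, Tnfsf11 and Tnfsf14) and 0 lower.

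Areg (chromosome 5, 91139599 to 91148432, plus strand) was read in d/d T cells and in no f/f T cell. It had 1183 UMIs in 54 of 213 d/d T cells (1556 CPM), 50 of them γδ, and 0 in the 27 f/f T cells, a log2 ratio of 5.48 with 0 counted as 3. The UMIs were unevenly spread, with 340 in 1 cell. Areg was read in 32.9% of d/d γδ cells (22.4% after thinning), against 46 of 2886 d/d stromal barcodes (1.59%, 0.173% after thinning). Tnfsf11, which encodes the cytokine RANKL, had 208 UMIs in d/d T cells (274 CPM) and 4 in f/f T cells (46.4 CPM), a log2 ratio of 2.56 (1.18 to 4.45). Ifng had 100 UMIs in d/d and 4 in f/f T cells (1.50, 0.10 to 3.41), mostly in other T cells.

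The genes farthest above f/f by the counting interval were Areg, Il17a, Pcp4, Crem, Hilpda, Myh11, Tagln, Cwc25, Sik1, Fosl2, Acta2 and Ier5l. Crem, a repressor and activator of cAMP response genes, had 734 UMIs in d/d T cells (965 CPM) and 5 in f/f T cells (58.0 CPM), a log2 ratio of 4.06 (2.83 to 5.68). Hilpda, a lipid droplet gene induced by low oxygen, had 443 UMIs in d/d T cells (583 CPM) and 2 in f/f T cells (23.2 CPM), a log2 ratio of 4.65 (2.79 to 7.70). Sik1, a kinase induced by cAMP, had 255 UMIs in d/d T cells (335 CPM) and 1 in f/f T cells (11.6 CPM), a log2 ratio of 4.85 (2.36 to 10.16). Cwc25, a splicing factor, had a log2 ratio of 3.97 (2.41 to 6.25), and Fosl2, an AP-1 factor, had 806 UMIs in d/d T cells (1060.1 CPM) and 10 in f/f T cells (116 CPM), a log2 ratio of 3.19 (2.31 to 4.26). These genes kept their direction without attached stroma or muscle, at 4.23 (2.68 to 6.51) for Crem, 4.14 (2.28 to 7.19) for Hilpda, 4.27 (1.78 to 9.58) for Sik1, 3.38 (1.82 to 5.67) for Cwc25 and 2.93 (1.94 to 4.14) for Fosl2. The smooth muscle genes on the list did not all do so. Tagln had 3.55 with all cells and -0.19 (-1.66 to 1.75) without, Pcp4 5.37 (2.88 to 10.68) and 0.03 (-2.72 to 5.45), and Acta2 3.08 and 1.15 (-0.45 to 3.46). Of these 12 genes 8 had a promoter window in the RefSeq table, of which 2 (Il17a and Pcp4) held AGGTCA and 1 (Areg) held TGACGTCA.

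**Figure D5:**
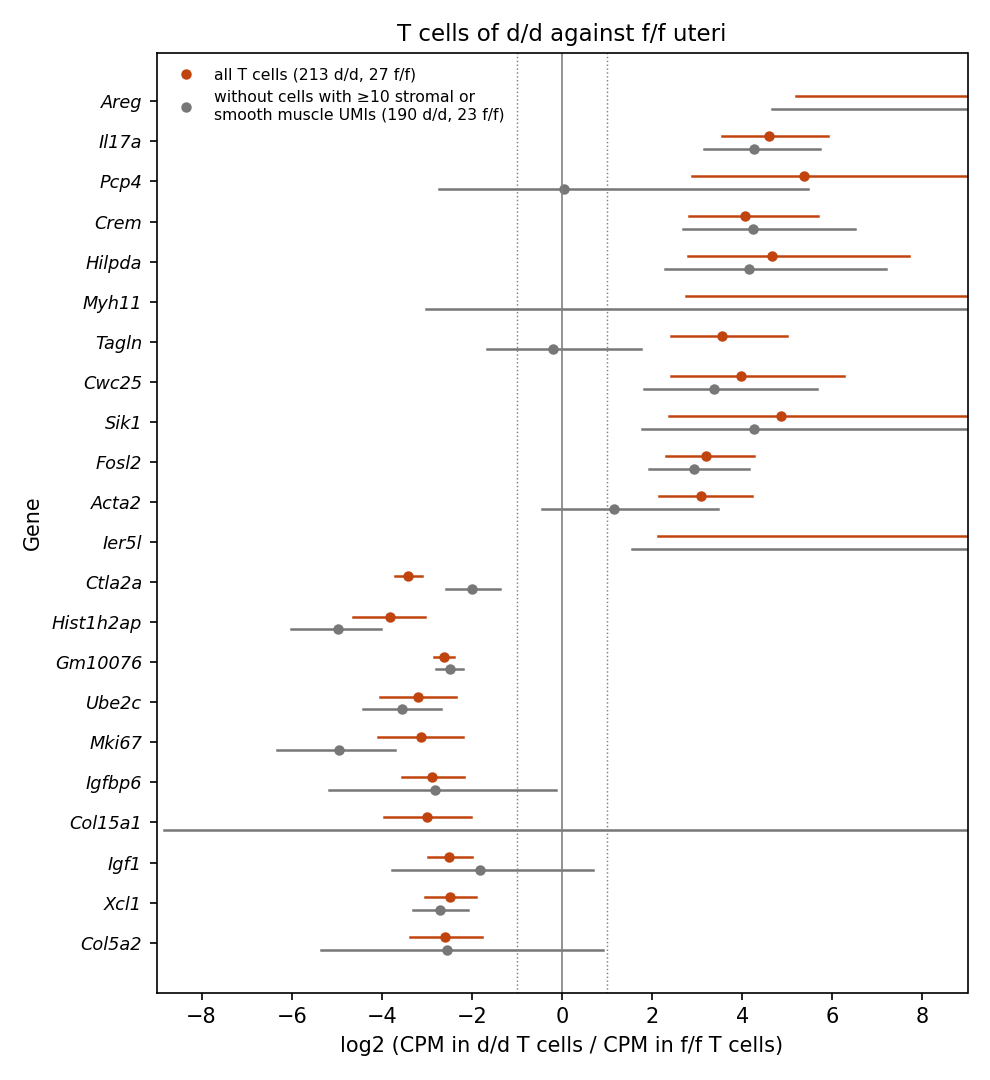
Log2 ratio of CPM, d/d over f/f, in all T cells and in T cells without 10 or more stromal or smooth muscle UMIs (horizontal), for the genes farthest above and genes among the 12 farthest below f/f, where points are ratios and lines exact 95% intervals for counting error, with no point where 1 library had 0 UMIs. Il17a stood at 4.59 and Crem at 4.06, Tagln moved to -0.19 without those cells, and Mki67 stood at -3.14.

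Many listed genes of activation and of nuclear factor κB (NF-κB) were higher in d/d T cells, while the count of immediate early genes rested in part on cells with attached stroma or muscle. Against 18.1% of all genes tested higher and 9.44% lower, of the residency and activation list 8 of 13 were higher and 1, Itga1, was lower, of the NF-κB list 7 of 11 were higher and 1, Bcl2, was lower, and of the immediate early and heat shock list 9 of 19 were higher and 0 lower. Without attached stroma or muscle these counts were 6 of 12 higher and 0 lower for activation, 5 of 11 and 1 for NF-κB and 3 of 19 (Junb, Egr1 and Dusp1) and 0 for immediate early and heat shock genes, where 599 of 3728 genes were higher and 405 lower. The lists overlap. With all cells Junb and Nr4a1 count under both activation and immediate early genes, Tnfaip3 under both activation and NF-κB, and Icos under both activation and the IL-17 list. Junb had 2796 UMIs in d/d T cells (3677 CPM) and 67 in f/f T cells (777 CPM), a log2 ratio of 2.24 (1.89 to 2.61). Pdcd1 had 208 UMIs in d/d T cells (274 CPM) and 3 in f/f T cells (34.8 CPM), a log2 ratio of 2.98 (1.41 to 5.26). Pim1, a survival kinase, had 1195 UMIs in d/d T cells (1572 CPM) and 36 in f/f T cells (417 CPM), a log2 ratio of 1.91 (1.44 to 2.43), and Nfkbia, the inhibitor that NF-κB induces, had 1.42 (0.78 to 2.15) with all cells and 0.78 (0.12 to 1.53) without those. Fos had 1.14 (0.71 to 1.60) with all and 0.94 (0.31 to 1.64) without, Hspa1b 1.35 and 0.82 (0.42 to 1.23), and Dusp1 1.64 and 1.18 (0.61 to 1.80). Enzymatic release of cells also induces such genes, and Fos stood at 2424 CPM in d/d and 565 CPM in f/f over all other kept barcodes. The part of dissociation in the T cell values was not tested. In the p53 list 3 of 9 were higher, namely Cdkn1a, Gadd45b and Gadd45g, and 0 lower. Cdkn1a, which encodes the cell cycle inhibitor p21, was read in 113 of 213 d/d and 3 of 27 f/f T cells, with 336 UMIs in d/d T cells (442 CPM) and 3 in f/f T cells (34.8 CPM; log2 ratio 3.67, 2.11 to 5.95, and 2.96 (1.40 to 5.25) without attached stroma or muscle). Over stromal barcodes Cdkn1a stood at 259 CPM in d/d and 20.2 CPM in f/f, and the part of free RNA in the T cell value was not tested.

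Proliferation genes were lower in d/d T cells, with 5 of 7 measured lower (Mki67, Top2a, Ube2c, Hmgb2 and Tubb5), 0 higher and a median log2 ratio of -1.17. Over all genes tested 9.44% were lower and 18.1% higher. Mki67, a marker of cycling cells, had 21 UMIs in d/d T cells (27.6 CPM) and 21 in f/f T cells (243 CPM), a log2 ratio of -3.14 (-4.08 to -2.20). Ube2c, which acts in mitosis, had -3.20 (-4.05 to -2.35) and the histone gene Hist1h2ap -3.83 (-4.64 to -3.04). In f/f nearly all of these UMIs lay in other T cells. Mki67 or Top2a was read in 10 of 152 d/d and 0 of 11 f/f γδ cells, and in 7 of 61 d/d and 7 of 16 f/f other T cells. Within f/f all 9 measured members were lower in γδ cells, while within d/d 1 of 7 was. Over all genes tested 22% were lower in γδ cells within f/f and 4.08% within d/d, so these counts have unlike baselines. Lowest by the interval was Ctla2a, a cysteine protease inhibitor, with 174 UMIs in d/d T cells (229 CPM) and 210 in f/f T cells (2435 CPM), a log2 ratio of -3.41 (-3.71 to -3.11). Igfbp6, Col15a1, Igf1 and Col5a2 were also among the lowest, with ratios of -2.50 to -3.00, and the summed stromal markers stood at 2448 CPM in d/d and 5171 CPM in f/f T cells. Without attached stroma or muscle Igf1 had -1.81, and Ctla2a had an interval of -2.58 to -1.38. Xcl1 had 71 UMIs in d/d T cells (93.4 CPM) and 45 in f/f T cells (522 CPM; log2 ratio -2.48). The predicted gene Gm10076 had -2.62.

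The remaining lists are set against the same shares over all genes, 18.1% higher and 9.44% lower with a median of 0.03. Of the m6A machinery 2 of 12 measured genes were higher (the readers Ythdf3 and Ythdc1) and 1 lower (Rbm15, an adaptor of the writer complex), with a median of -0.27, and without attached stroma or muscle 4 of 9 were higher and 2 lower, with a median of 0.81. Ythdc1, the nuclear reader, had 177 UMIs in d/d T cells (233 CPM) and 5 in f/f T cells (58.0 CPM), a log2 ratio of 2.01 (0.76 to 3.65), and Mettl3, the catalytic partner of METTL14, had 5 UMIs in d/d and 1 in f/f T cells, too few to compare. Of the interferon list 2 of 7 were higher (Isg15 and Zbp1), of the receptor signalling list 4 of 14 were higher and Cd28 was lower, and of the cytotoxic list 1 of 11 was higher and 3 lower. Without attached stroma or muscle 0 of 14 receptor signalling genes were higher and 2 lower, and 0 of 11 cytotoxic genes were higher and 5 lower. Of the cytokine receptor list 6 of 15 were higher (Il1r1, Il7r, Il18r1, Il2ra, Il2rg and Il21r) and 0 lower, with a median of 0.77, or 0.22 without attached stroma or muscle. Il7r had 393 UMIs in d/d T cells (517 CPM) and 13 in f/f T cells (151 CPM), a log2 ratio of 1.78 (0.99 to 2.70).

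Some of the genotype differences were also seen within each class, and others passed a ratio of 2 in 1 class and not in the other. Each class may hold a different mix of cells in the libraries, and the part of this in the ratios was not tested. Over all genes tested 16.6% were higher and 12.1% lower in d/d γδ cells, and 19% higher and 4.98% lower in d/d other T cells. The 12.1% can include genes read in d/d alone, as 0 was counted as 3 in the smaller f/f class. Kcnk1, with 20 UMIs in d/d and 0 in f/f γδ cells, was counted as lower in this way. In γδ cells Crem had 582 UMIs in d/d and 3 in f/f (3.74, 2.18 to 6.02), Fosl2 had 3.22 (1.99 to 4.85), Junb 2.07 (1.61 to 2.58) and Icos 4.23 (2.37 to 7.28). In other T cells Crem had 152 UMIs in d/d and 2 in f/f (4.13, 2.25 to 7.19), Fosl2 had 2.56 (1.30 to 4.21) and Junb 2.02 (1.49 to 2.61). These 3 genes of activation were therefore higher in d/d in both classes. Of the 9 immediate early and heat shock genes higher in d/d T cells, 7 of 9 measured were higher in γδ cells and 2 of 8 measured in other T cells. These 9 genes were chosen on the sum of both classes, in which γδ cells gave 550327 of 760310 d/d UMIs. The γδ count is thus partly set by that choice, and cells with attached stroma or muscle are included. Fos had 1.09 (0.53 to 1.72) in γδ and -0.03 (-0.75 to 0.75) in other T cells, Hspa1b 2.64 and -0.03, Hspa1a 2.36 and -0.30, and Egr1 1.44 and 0.29. Hmgb2, a chromatin protein gene of the proliferation list, had 0.79 in γδ and -1.41 in other T cells. Rora had 3.28 (1.92 to 5.17) in γδ and 1.11 (0.21 to 2.16) in other T cells. Ifng and Ccl5 were higher in other T cells of d/d, with 2.42 (1.02 to 4.33) and 2.63 (2.22 to 3.08). Trac stood at -0.46 (-1.10 to 0.22) in other T cells. Ctla2a was lower in both classes (-3.84 in γδ and -2.59 in other T cells), and Mki67 was lower in other T cells (-4.19, -5.95 to -2.74). Differences between the classes in these ratios were not tested.

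Set against NK or innate lymphoid cells of the same library, T cells had more Il7r (517 CPM in T cells and 42.8 CPM in NK cells of d/d, log2 ratio 3.59, and 7.18 in f/f, 4.44 to 12.59), more of the tissue homing receptor gene Cxcr6 (4.11, 2.97 to 5.56, in d/d and 5.06, 3.78 to 6.54, in f/f), more Icos (3.09 and 3.94) and more Maf (2.17 and 1.63). Prf1, which encodes perforin, was lower in T cells (-5.12, -7.09 to -3.62, in d/d and -3.38, -8.70 to -0.87, in f/f). These genes were not used to choose either class. The NK genes and CD3 genes were, and their values are not compared.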

How the data were processed

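Whole uterus of mice on gestational day 4 was dissociated with enzymes and profiled with a droplet 3′ kit, 1 Mettl14 d/d and 1 Mettl14 f/f library. The authors deposited unnormalized matrices of UMI counts, 1 per library, built on mm10 per the submitters' processing notes. Cell Ranger 3.0.1 is named per the submitters' processing notes and cellranger 6.0.1 per the file headers, so the version is uncertain. Barcodes were filtered and classed as the report states. UMIs were summed per class and library and divided by the class total (CPM), with python 3.11.15, numpy 2.4.6, scipy 1.17.1 and pandas 2.3.3. A ratio of 2 made a call, with 20 UMIs in the higher library or 10 in the higher class, and a count of 0 was taken as 3. Shares carry Clopper-Pearson, sums Poisson and ratios conditional binomial intervals at 95%, which were tested on simulated data. Reads of 1 molecule share a UMI, but free RNA, capture and tissue release are not covered. Cells are not replicates, so no test across samples was possible. Stromal barcodes had at least 3 stromal markers and no CD3 or Ptprc UMI. Thinning drew 1000 UMIs per barcode. The classes, gene lists and markers, and the alternatives, were chosen with earlier results of these data known. Named genes are list members and the 12 highest and 12 lowest per comparison by the interval bound nearest 0, where T cells reached 10% of the CPM of other barcodes. A few of the genes that this rule names are not reported here. The ranking within d/d alone was added after its values were seen. Genes that share a symbol (36 identifiers) were kept apart, and 1 listed gene, Tcrg-V2, had no entry. No doublet caller was applied in the results. As an alternative, Scrublet (scanpy 1.11.5) at 0.8% per 1000 barcodes marked 355 d/d and 533 f/f barcodes, 18 and 3 of them T cells. The other alternatives changed the minimum depth, the rule, the scaling (edgeR 4.0.16 for TMM factors) and the minimum count. In T cells the endothelial list summed to 24 UMIs in d/d and 5 in f/f, the epithelial to 16 and 3, the macrophage, monocyte and dendritic to 254 and 23, the B cell to 32 and 5, the neutrophil to 0 in both, the mast cell to 14 and 1 and the red cell to 11 and 1.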

Additional observations from a re-analysis of the deposited data

Results flagged for a closer look

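For 4 genes the ratio of γδ to other T cells lay on opposite sides of 1 in the libraries, at least 2-fold each way, and the difference between the libraries was not tested. Hsd11b2, a steroid-inactivating enzyme, had a log2 ratio of -1.13 in d/d and 1.72 in f/f. The heat shock gene Hspa1a had 1.10 in d/d and -1.56 in f/f, and its near-identical neighbour Hspa1b had 1.13 in d/d and -1.54 in f/f. Tyrobp, a signalling adaptor of NK and myeloid cells, had -3.34 in d/d and 1.94 in f/f.

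Barcodes with at least 2 CD3 genes and a UMI of Epcam, Pecam1, C1qa or Cd79a were left out of the T cells, and they too carried Il17a. It was read in 19 of 39 such barcodes in d/d (48.7%, interval 32.4% to 65.2%) and in 1 of 11 in f/f (9.09%, 0.230% to 41.3%).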

How the results depend on the processing

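No paired analysis was possible because each genotype was 1 library, and for the same reason no replicate could be left out. The ratio of T cell shares, d/d over f/f, was 9.49, and it was 20.1 with a minimum of 2000 UMIs and 28.4 with all 3 CD3 genes required. The γδ share of f/f T cells was 22.2% with at least 2 γδ genes required and 60% with all 3 CD3 genes required. After thinning to 1000 UMIs before the rule it was 41.7% in f/f and 64.6% in d/d. The share of γδ cells with Il17a was 59.8% in d/d after thinning before the rule, which chose fewer cells, and 0 in f/f with 2000 UMIs, with all 3 CD3 genes and after that thinning. Genes higher in d/d T cells numbered 411 with all 3 CD3 genes, 1324 with TMM factors and 463 with a minimum of 50 UMIs, and genes lower numbered 173 with TMM factors, 2692 with a minimum of 5 UMIs and 105 with one of 50. At a minimum of 5 UMIs a gene read in d/d alone can count as lower, because 0 was taken as 3 in the smaller f/f sum. The 2692 are therefore not all genes with more UMIs per total in f/f. Genes higher in γδ cells of both libraries numbered 3 with all 3 CD3 genes, 10 without excluded genes, 9 with at least 2 γδ genes, 6 without cells of 10 or more stromal UMIs, 5 without those of stroma or muscle, and 87 and 1 with minimums of 5 and 50 UMIs. Genes lower in both numbered 8 with all 3 CD3 genes, 15 with at least 2 γδ genes, and 60 and 1 with those minimums.

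Among ratios of at least 2 either way in the main setting, signs of the log2 ratio turned as follows, and the cause was not tested. Turns of smaller ratios were not counted. With 2000 UMIs Sox13 (d/d over f/f) had 0.18. With all 3 CD3 genes Sox4 had 0.26 and Tnfsf14 -1.26 (d/d over f/f), Egr2 -0.26 and Gzma 0.28 (γδ over other, d/d) and Hspa1b 0.00600 (f/f). Without excluded genes Adamts1 had -0.35 and Cd34 -0.21 (d/d). With at least 2 γδ genes Mgp had -0.089 and Pxdc1 -0.16 (d/d), and Rora 0.044 and Snx18 -0.86 (f/f). Without stroma or muscle Tagln had -0.19 (d/d over f/f). Turned values on at most 3 UMIs in the higher class, such as Igfbp3 at -0.12 (d/d), and those with a class at 0 are not counted here. Removing doublets, keeping every deposited barcode, other totals, TMM factors and weighting each cell equally turned no sign among the named genes with such a ratio of at least 2. Leaving out cells with stroma or muscle and weighting cells equally were chosen after seeing the data. The f/f library held 27 T cells, and ratios on few f/f UMIs have wide intervals.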
